A study of Arabidopsis thaliana with 12 samples.

Results

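The probe sets described here were chosen to follow the pmr5 genotype. By that choice, their signal differed with the pmr5 mutation in the same direction in the Col-0 and in the pmr6 background. The rule also held the differences with the pmr6 mutation under 0.25 on the log2 scale, which kept the pmr5 differences in both backgrounds similar. The probe sets were taken from the 22810 rows of an Affymetrix ATH1 table. Each row is a probe set, a group of short oligonucleotides designed to measure a transcript. Of these rows, 22746 had no control (AFFX) identifier and 13659 of those had a mean intensity of at least 100 over the 12 arrays. In 8770 rows the genotype means of log2(intensity + 28) lay within 0.25 of each other both for pmr6 and Col-0 and for pmr5 pmr6 and pmr5. Each of these rows was scored by the difference with the pmr5 mutation, taken in the background where it was closer to 0. The 75 highest and the 75 lowest scores gave 150 members, which are called high 1 to high 75 and low 1 to low 75 in order of score.

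The 12 arrays measured total RNA from rosettes of untreated Arabidopsis thaliana plants that were 3 weeks old and grown at 22 °C with 14 h of light. The wild-type accession Col-0, the mutant pmr5, the mutant pmr6 and the double mutant pmr5 pmr6 had 3 arrays each. Neither allele is named in the labels. Replicates are labelled as biological, with no word on pooling, so the spread and the p-values given here measure only the variation between these samples. A rosette holds many cell types, and more RNA per cell and more cells of a type cannot be told apart in it.

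Both mutants are known for resistance to powdery mildew, a fungus that feeds on living epidermal cells. PMR5 belongs to the TRICHOME BIREFRINGENCE-LIKE family, whose members include enzymes that acetylate wall polysaccharides, while PMR6 resembles pectate lyases, which cut pectin. The walls of both mutants are altered in pectin, the gel-forming polysaccharide between cellulose fibrils. Resistance of pmr5 was described as independent of salicylic acid and of jasmonate and ethylene signalling. A design with both single mutants and the double mutant separates transcripts that depend on 1 mutation from those that respond to either.

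No member is given a gene name. For 140 pairs of rows annotated to a common gene, levels correlated at r = 0.07 as deposited and at r = 0.18 with the control identifiers placed first. The order with the control identifiers first was the only candidate, to be accepted only if its correlation was at least 0.5 and higher than at each other shift of the identifiers. It met neither condition, since the highest over 22810 shifts was 0.53, at a shift that was not a candidate and was not examined further. No gene, pathway or sequence is assigned to a row, and members are described by their values.

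The arrays were on a common scale, with a mean intensity between 498.8 and 499.8 after the highest and lowest 2% of rows were left out. Their medians still differed, at 176.45 to 190 in the 6 arrays with the pmr5 mutation and 168.45 to 175.2 in the 6 without it. Whether this difference between arrays has a part in the differences of the members was not tested. The arrays were hybridized in 3 runs of 4 arrays, 1 array of each genotype per run, and the replicate number is the run. Run 1 was hybridized on an earlier day than runs 2 and 3, which shared a day. Each genotype kept the same 1 of 4 fluidics modules in every run, so genotype and module cannot be told apart. The arrays pmr5 replicate 1 and pmr5 pmr6 replicate 3 stood apart in their dimmest rows, with 5th percentiles of 9.6 and 9.2 against 3 to 5 elsewhere. For pmr5 pmr6 replicate 2 the instrument noted a step that the operator stopped.

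The values below that compare genotypes are those that chose the members, so they are given as a description, without a test. In the 75 high members the pmr5 mean lay 1.34 to 4.77-fold above Col-0, with a median of 1.46-fold. The pmr5 pmr6 mean lay 1.33 to 5.06-fold above pmr6, with a median of 1.45-fold. In the 75 low members the Col-0 mean lay 1.27 to 1.73-fold above pmr5 and the pmr6 mean 1.27 to 1.74-fold above pmr5 pmr6, with medians of 1.34-fold and 1.35-fold. Folds are on the log2(intensity + 28) scale, which understates the difference of dim probe sets. On that scale only 3 of the high members and 0 of the low members differed at least 2-fold in both backgrounds. Most of the set thus consists of modest differences.

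Among the high members, high 1 stood far from the rest. Its intensity was 138, 146 and 167 in the 3 Col-0 arrays and 123, 193 and 198 in pmr6. With the pmr5 mutation it was 861, 840.0 and 761 in pmr5 and 1097, 898 and 907 in pmr5 pmr6. The lowest array with the mutation was thus several times as bright as the highest array without it. The log2 difference was 2.25 in the Col-0 background and 2.34 in the pmr6 background (SE 0.15 each). This SE and those below come from the limma fit described later, which draws each row's spread toward that of other rows. From the arrays of high 1 alone the SE was 0.16.

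The next 2 high members were the others past 2-fold. High 2 measured 376, 189 and 285 in Col-0 and 369, 337 and 201 in pmr6, against 897, 531 and 756 in pmr5 and 867, 733 and 653 in pmr5 pmr6. Its log2 differences of 1.29 and 1.27 (SE 0.22 each, 0.31 from its own arrays alone) were nearly equal in the 2 backgrounds. High 3 was dimmer, at 167, 77.8 and 64.9 in Col-0 and 141, 106 and 102 in pmr6, against 348, 175 and 219 in pmr5 and 291, 312 and 254 in pmr5 pmr6. The 6 arrays with the mutation did not overlap the 6 without it in either, but in high 3 the lowest pmr5 array was close to the highest Col-0 array. Its log2 differences were 1.10 and 1.12 (SE 0.25 each, 0.31 from its own arrays alone).

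**Figure D1:**
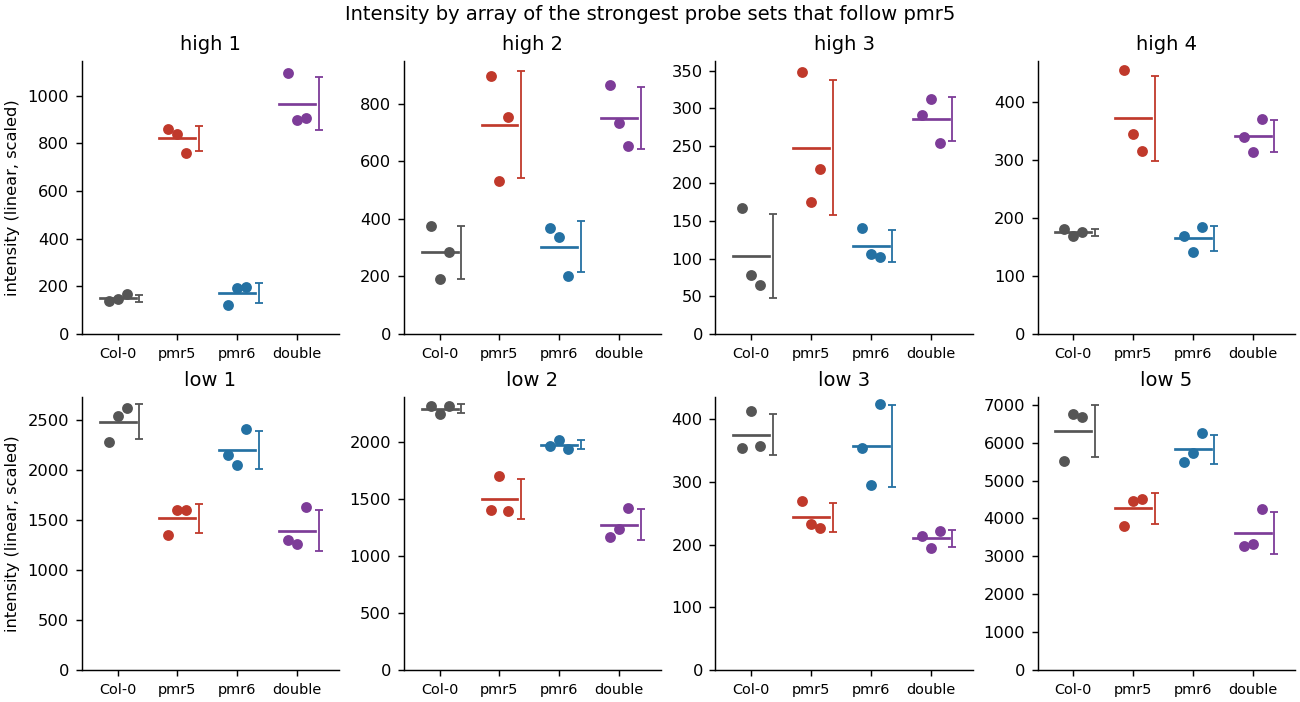
Intensity on the deposited linear scale (y axis, starting at 0) of 4 high and 4 low members in the 3 arrays of each genotype (x axis; double is pmr5 pmr6). Points are arrays in replicate order, horizontal lines are means and bars are ± 1 SD; in each panel no point of pmr5 or pmr5 pmr6 overlaps the range of the other 2 genotypes.

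High 4 varied little without the mutation, at 180.5, 169.6 and 175 in Col-0 and 169.5, 141 and 184 in pmr6. With the mutation it was 455, 346 and 316 in pmr5 and 339.7, 314 and 370.5 in pmr5 pmr6. The pmr6 mutation placed it slightly lower in both backgrounds, by log2 -0.08 against Col-0 and -0.10 against pmr5. High 5 measured 210.2, 176 and 177 in Col-0, 438, 319 and 289 in pmr5, 208, 221 and 172 in pmr6 and 541, 336 and 365 in pmr5 pmr6. In both genotypes with the mutation its replicate 1 array was the highest.

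High 6, high 7 and high 10 were dim without the mutation. High 6 lay between 77.0 and 141 in the 6 arrays without it and between 173 and 253 in the 6 with it. For high 7 the corresponding ranges were 44.8 to 104 and 112 to 179.6, and for high 10 they were 76.8 to 139.8 and 173 to 226. None of the 3 overlapped, although the gap in high 7 was only from 104 to 112. High 8 and high 9 completed the 10 strongest. High 8 ranged from 381 to 568 without the mutation and from 614 to 997 with it. High 9 ranged from 125 to 217 and from 244 to 369. The highest pmr5 array was replicate 3 in high 8 and replicate 1 in high 9.

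The low members were smaller in difference and mostly brighter. Low 1 measured 2286, 2538 and 2622 in Col-0 and 2147, 2051 and 2414 in pmr6. It was 1348, 1598 and 1606 in pmr5 and 1296, 1257 and 1627 in pmr5 pmr6. The highest array with the mutation, at 1627, was well below the lowest without it, at 2051. The log2 differences were -0.70 and -0.66 (SE 0.10 each, 0.12 from its own arrays alone).

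Low 2 varied little in Col-0, at 2316, 2246 and 2318, and in pmr6, at 1969, 2022 and 1939.7. It varied more in pmr5, at 1404, 1704 and 1394, and in pmr5 pmr6, at 1169, 1234 and 1424. Its pmr6 arrays all lay below its Col-0 arrays, by log2 -0.21, and the double mutant lay below pmr5 by log2 -0.23, both close to the limit of 0.25. Low 5 measured 5511, 6749.7 and 6673 in Col-0 and 5499, 5716 and 6255 in pmr6, and 3805, 4472 and 4519.8 in pmr5 and 3267, 3334 and 4241 in pmr5 pmr6. Low 3 had the same shape at a far lower level, from 294 to 424 without the mutation and from 194 to 269.9 with it. Low 9, a much brighter probe set, ranged from 11874 to 16162 without the mutation and from 7708 to 10961 with it. In low 10 the arrays without it lay between 282 and 445 and those with it between 166 and 279.6, so the groups touched without overlapping.

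Low 4, low 6, low 7 and low 8 were the members among the 10 strongest low ones whose arrays overlapped. In low 4 the pmr6 replicate 2 array, at 333, lay among the pmr5 arrays, which reached 369.9. In low 6 it lay at 137, below 2 of the pmr5 arrays (139.5 and 159.9) and pmr5 pmr6 replicate 3 (146). In low 7 the same array read 154, and pmr5 pmr6 replicate 3 read 205, while Col-0 stood at 209, 207 and 209. In low 8 Col-0 replicate 1, at 488, lay among the arrays with the mutation, which ran from 335 to 612, and pmr6 replicate 2, at 611, fell just inside that range. The array pmr6 replicate 2 was thus on the overlapping side in all 4.

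At the limits of the set the members shaded into the rows that were left out. The last high member, high 75, had a score of 0.415 and the next row a score of 0.412. High 75 measured 1272, 984 and 902 in Col-0, 1632, 1532 and 1459 in pmr5, 1279, 1265 and 1034 in pmr6 and 1558, 1675 and 1548 in pmr5 pmr6. The next row measured 376, 569 and 371, then 519.9, 581 and 684, then 532, 458 and 456, and 672, 652 and 623 in the same order of genotypes, and its groups overlapped. The last low member scored -0.343 and the next row -0.342. Low 75 had 3748, 4041 and 4322 in Col-0, 3001, 3131 and 3350.0 in pmr5, 3288, 3537 and 3736 in pmr6 and 2797, 2758 and 2745 in pmr5 pmr6, so its lowest pmr6 array was below its highest pmr5 array. The limit of 75 therefore marks no break in the data.

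Over all members, the 6 arrays with the mutation lay beyond the 6 without it in 42 of 75 high and 52 of 75 low members. Over the 13659 rows above the intensity floor, 2.76% were apart in this way upward and 2.61% downward. The rule chose rows for this separation, so nothing is read from the excess. The 3 pmr5 arrays were all above the 3 Col-0 arrays in 60 high members (14.7% of all rows) and all below them in 65 low members (11.9%). For pmr5 pmr6 against pmr6 the counts were 67 (15.2%) and 67 (14.3%). Run by run, pmr5 was above Col-0 and pmr5 pmr6 above pmr6 in all 3 runs for 65 of 75 high members (10.9% of all rows), and below for 69 of 75 low members (9.9%). Taken singly, pmr5 was above Col-0 in all runs for 68 high members (24.5%) and below for 71 low members (19.7%), and pmr5 pmr6 was above pmr6 for 71 (24.1%) and below for 72 (21.8%). Among the 33 high members that overlapped, the array that reached furthest among those without the mutation was Col-0 replicate 1 in 11, and among those with it pmr5 replicate 2 in 11. Among the 23 overlapping low members it was pmr6 replicate 2 in 9 and pmr5 replicate 3 in 11.

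**Figure D2:**
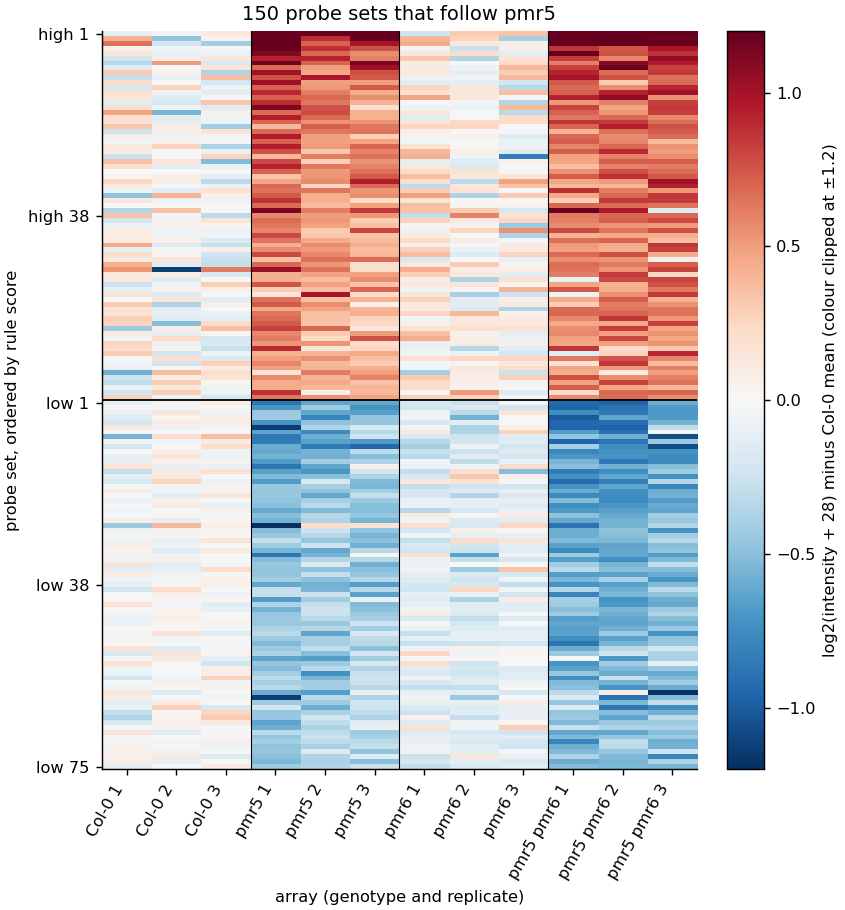
Difference of log2(intensity + 28) from the member's own Col-0 mean (colour, clipped at ±1.2) for the 150 members (y axis, ordered by score, high members above the line) on the 12 arrays (x axis). The pmr5 and pmr5 pmr6 columns are red in the upper block and blue in the lower, the pmr6 columns are pale, and pmr5 replicate 1 is the deepest pmr5 column in both blocks.

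In the fit across 17058 rows with limma, a linear model with a shared estimate of spread, 39 high and 50 low members passed a Benjamini-Hochberg adjusted p of 0.05 for pmr5 against Col-0. Over all rows fitted, 4.2% passed upward and 3.89% downward. For pmr5 pmr6 against pmr6, 40 high and 54 low members passed, against 4.14% of all rows in each direction. Both comparisons were passed by 34 high members (2% of all rows) and 48 low members (1.87%). These contrasts are those of the rule, so the counts only say how many members reached that threshold in these arrays. For pmr6 against Col-0, 0 members passed, where 2.16% of all rows passed upward and 1.26% downward. For pmr5 pmr6 against pmr5, 0 members passed, where 1.86% and 1.34% of all rows did. For the difference between the 2 backgrounds, 0 members passed, where 0.041% and 0.0762% did. The rule held these 3 differences small, so nothing is read from their counts either.

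The SD within a genotype had a median of 0.13 on the log2 scale in the low members and 0.21 in the high members, against 0.16 in all rows above the floor and 0.14 in the 8770 rows within the closeness limits. The signal level, given here as a description, was not independent of the rule, which set a floor and, through the closeness limits, kept brighter rows. The median intensity in Col-0 was 175 in the high members and 1942 in the low members, against 442 over all rows above the floor and 542 over the 8770 rows. In 6 of 75 high members, high 7 among them, the mean of the Col-0 and pmr6 arrays was itself under 100, so they passed the floor only through the arrays with the mutation. In 2 of 75 low members the mean of the arrays with the mutation was under 100. A mean intensity of 1000 or more was found in 3 of 75 high members (4%) and 42 of 75 low members (56%), against 25.2% of all rows. An intensity from 100 to 200 was found in 32 high members (42.7%) and 7 low members (9.33%), against 20% of all rows.

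**Figure D3:**
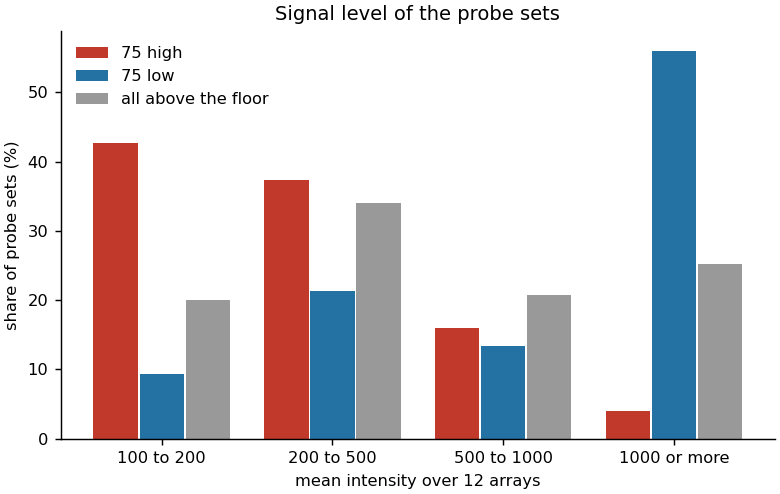
Share of probe sets (y axis, percent) by mean intensity over 12 arrays (x axis) for the 75 high members, the 75 low members and the 13659 rows above the floor. The high members are most frequent from 100 to 200, at 42.7%, and the low members at 1000 or more, at 56%.

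The brightest members belonged to the low set. Low 51 measured 24989, 19916 and 22002 in Col-0 and 21571, 22816 and 21891 in pmr6. It stood at 16420.5, 18132 and 15749 in pmr5 and 14695, 17602 and 19095 in pmr5 pmr6. All arrays with the mutation were below all arrays without it, and pmr6 differed from Col-0 by under 0.1 on the log2 scale. The brightest high member, high 58, measured 1928, 1585 and 1614 in Col-0, 2669, 2180.3 and 2296 in pmr5, 2036, 2259.6 and 1759.7 in pmr6 and 2754, 2783 and 2696 in pmr5 pmr6. Its pmr6 replicate 2 array lay above its lowest pmr5 array.

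The size of the difference was alike in both backgrounds, as the rule required within limits. Both small differences were bound to 0.25, so the pmr5 differences in the 2 backgrounds could be no more than 0.5 apart. They were apart by a median of 0.00 in the high and -0.01 in the low members, with extremes of -0.36 and 0.35. The difference in the pmr6 background was closer to 0 than that in Col-0 in 38 of 75 high and 32 of 75 low members.

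**Figure D4:**
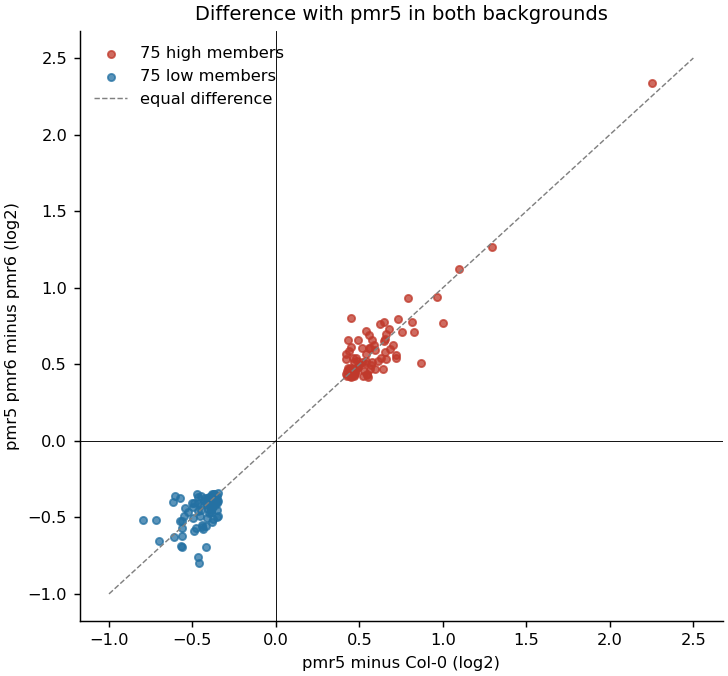
Difference of pmr5 from Col-0 (x axis) against that of pmr5 pmr6 from pmr6 (y axis), both on the log2 scale, for the 75 high and 75 low members, with the line of equal difference. High 1 lies alone at 2.25 and 2.34, and the other members form a dense group on either side of the empty centre that the rule left out.

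The small differences with the pmr6 mutation, which the rule also used, were not spread evenly around 0 in these probe sets. Both small differences, pmr6 minus Col-0 and pmr5 pmr6 minus pmr5, lay on the side of the pmr5 difference in 50 of 75 high and 61 of 75 low members. Over the 8770 rows that met the same limits, 24.1% lay on the upper side in both and 30.7% on the lower. The medians were 0.10 and 0.07 in the high members and -0.14 in both comparisons of the low members, against -0.01 and -0.02 over those 8770 rows. At least 1 of the small differences exceeded 0.2 in 19 high and 31 low members. Shares over the 8770 rows were not computed for this count or the next, so neither is read as particular to the members. Both small differences were under 0.1 in 20 high and 14 low members, and these came closest to following pmr5 alone. High 23 is an example, at 275, 292 and 277 in Col-0, 276, 280.3 and 265 in pmr6, 479, 408 and 404 in pmr5 and 484, 436 and 376 in pmr5 pmr6. Low 34 is another, at 494, 403 and 433, then 419, 442 and 443, then 314, 387 and 287, and 323, 291 and 354 in the same order. In both members the pmr6 arrays lay among or beside the Col-0 arrays, and the double mutant lay with pmr5.

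To see the pattern in arrays that had no part in choosing the probe sets, the same rule was applied to the 8 arrays of 2 runs and the values were read in the 4 arrays of the remaining run. The difference of pmr5 from Col-0 and that of pmr5 pmr6 from pmr6 rest there on 4 different arrays. Each run holds 1 array per genotype, so there is no test within a run. Of the 75 high probe sets chosen without run 1, 61 were higher with the mutation in both backgrounds in run 1, where 33.3% of all rows above the floor (applied to the 8 arrays used) were. The counts were 62 of 75 in run 2 (32.3% of all rows) and 53 of 75 in run 3 (31%). Of the low probe sets, 60 of 75 were lower in both backgrounds in run 1 (27.3% of all rows), 66 in run 2 (31%) and 43 in run 3 (25.4%). The share was above that of all rows in all 6 lists, and run 3 gave the lowest count in both directions.

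The differences were smaller in the run left out than in the runs used to choose. The median difference of pmr5 from Col-0 in the high probe sets was 0.46, 0.44 and 0.34 on the log2 scale in runs 1, 2 and 3, against 0.52, 0.62 and 0.56 in the arrays used. That of pmr5 pmr6 from pmr6 was 0.41, 0.47 and 0.42, against 0.54, 0.60 and 0.53. In the low probe sets the medians were -0.38, -0.36 and -0.39 in the Col-0 background and -0.32, -0.41 and -0.31 in the pmr6 background. The median over all rows was between 0.00 and 0.03 for both differences. The 6 lists shared 28 to 39 of their 75 probe sets with the members chosen on all 12 arrays.

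The full pattern, with both pmr5 differences in the chosen direction and each larger in size than both small differences, was met less often. It held in the left-out run for 27, 29 and 31 of 75 high probe sets in runs 1, 2 and 3, against 9.34%, 9.36% and 9.14% of all rows. For the low probe sets it held for 33, 30 and 25 of 75, against 8.96%, 9.24% and 6.24%. In the left-out runs pmr6 was above Col-0 in 50, 50 and 43 of 75 high probe sets, where 50.9%, 48.2% and 47.5% of all rows were. It was below Col-0 in 55, 65 and 45 of 75 low probe sets, against 49.1%, 51.8% and 52.4%. The double mutant was above pmr5 in 42, 60 and 50 of 75 high probe sets, against 48.6%, 49.2% and 45.5% of all rows. It was below pmr5 in 52, 65 and 44 of 75 low probe sets, against 51.3%, 50.8% and 54.5%. The counts of 42, 43, 44 and 45 lay nearest to the share of all rows.

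**Figure D5:**
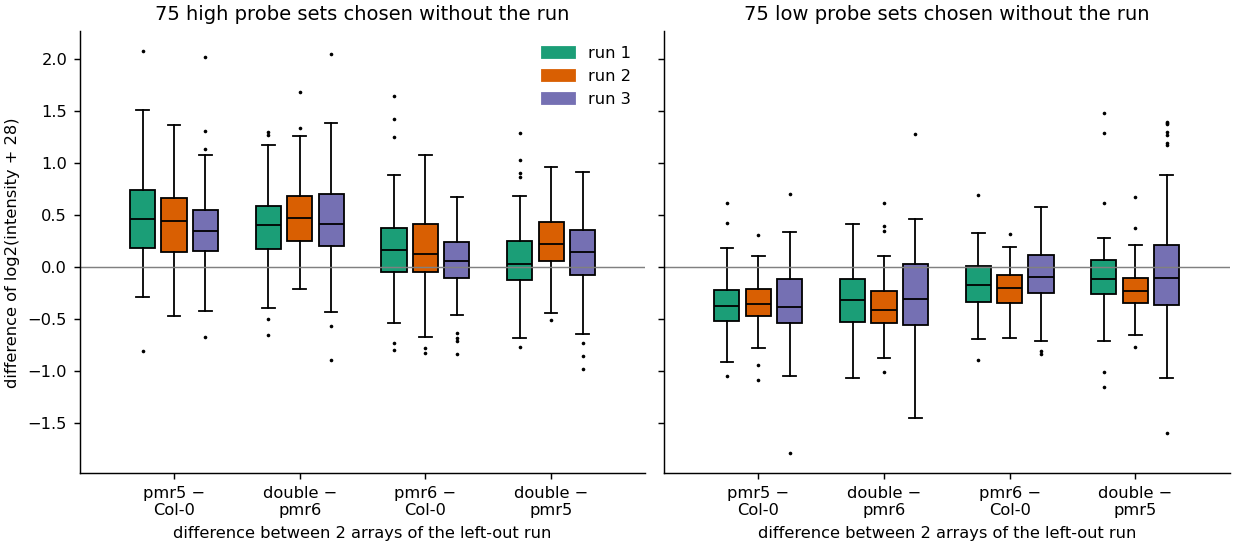
Differences between 2 arrays of the run that was left out of the choice (y axis, log2(intensity + 28)) for 4 pairs of genotypes (x axis; double is pmr5 pmr6), for 75 high (left) and 75 low (right) probe sets chosen on the other 2 runs. Boxes show the median and quartiles over probe sets, whiskers reach 1.5 times the box, and dots lie beyond; the medians of both pmr5 differences lie on the chosen side of 0 in every run, at 0.34 to 0.47 and -0.31 to -0.41.

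The mirrored rule, with pmr5 and pmr6 exchanged, gave probe sets that follow pmr6. At a score of more than 0.5 on the log2 scale there were 38 high probe sets for pmr5 and 10 for pmr6, and below -0.5 there were 10 and 6. The last of 75 high scores was 0.415 for pmr5 and 0.262 for pmr6, and the last of 75 low scores was -0.343 and -0.299. The rows within the closeness limits were 8770 for pmr5 and 7560 for pmr6. In the run left out, the pmr6 lists kept their side in both backgrounds for 32, 47 and 31 of 75 high probe sets and 32, 41 and 45 of 75 low ones. The shares of all rows that did so were 27.1%, 28.5% and 23.6% upward and 27.6%, 31.1% and 30.6% downward. The high counts were lower than those of the pmr5 rule in each run, and the low counts in runs 1 and 2, and the difference between the 2 rules was not tested.

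The rule used genotype means, so differences between runs and deviations within a genotype did not enter it directly. An array that lies far out moves its genotype mean, its run and its own deviation together. Neither measure is therefore fully free of the choice of members. In a limma model with genotype and run as terms, 0 of 150 members and 0 of 17058 rows differed between runs at an adjusted p under 0.05. At an unadjusted p under 0.05 there were 8 high and 9 low members, and 6.62% of all rows. The mean over genotypes in run 1 was above the member's own average in 49 of 75 high members, against 51.5% of all rows above the floor. In run 3 it was above in 56 of 75 low members, against 51.4% of those rows.

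Within a genotype the high members varied together only weakly, with a mean correlation of 0.08 between pairs of members over the 12 arrays, and 0.10 for the low members. The corresponding mean over all 13659 rows above the floor was 0.00, and pairs of 1 high and 1 low member averaged -0.07. All pairs share the arrays, and members were chosen on the same arrays. Without pmr5 replicate 1 the means were 0.03 and 0.07. On that array 61 of 75 high members lay above their pmr5 mean, where 50.2% of all rows above the floor did, and 59 of 75 low members lay at or below it, where 49.8% did. Both are the direction of the members' own difference. It is also an array with a raised dim end. Without it 97 of the 150 members stayed, 57 in place of 89 passed limma for pmr5 against Col-0, and the high members among those were 15 in place of 39.

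Without both arrays with a raised dim end, 39 of 75 high and 34 of 75 low members stayed members. Over the original members the medians then were 0.50 and 0.56 in the high and -0.39 and -0.46 in the low members for the pmr5 difference in the Col-0 and pmr6 backgrounds. With all arrays they were 0.55, 0.54, -0.42 and -0.43. These medians stayed within 0.05 of their values with all arrays, but those of the small difference between pmr5 pmr6 and pmr5 moved from 0.07 to 0.15 in the high and from -0.14 to -0.20 in the low members. Each thus lay further to the side of the pmr5 difference without these arrays. The pmr5 difference in the Col-0 background then ranged from 0.20 to 2.22 in the high and from -0.89 to 0.20 in the low members, so at least 1 low member then had the opposite sign.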

How the data were processed

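Per the labels, 15 µg of total RNA per array was labelled with biotin. Values in the deposited table are intensities on a linear scale. The software behind them is not given in the sources used, and the common scale was read from the values. Modules and hybridization times come from the instrument records; arrays at most 30 minutes apart were taken as 1 run. Intensities were turned into log2(intensity + 28) here. The members, and the lists and tests, were chosen with earlier results of these data known. The dimmest 25% of the rows without control identifiers were left out before the limma fit (limma 3.58.1, R 4.3.3; 4 genotype means, intensity trend, 8 residual degrees of freedom), with Benjamini-Hochberg adjustment over all rows fitted. The rule and the fit were tested on simulated data with planted changes larger than those of most members. The outcome is not given here, and no result rests on it. Described by their values in each array or by their range are the 10 members with the most extreme score per direction and the rows on each side of the limits. The further members were chosen after their values were seen, as the brightest or the least moved by pmr6. Lists of genes and promoter motifs were not used because rows have no proven names. The number of arrays limits the precision. Figures were drawn with matplotlib 3.10.9.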

Additional observations from a re-analysis of the deposited data

Results flagged for a closer look

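Some rows outside the set met its other limits. Among 16 rows with control identifiers and a mean intensity of at least 100, 1 met the limits of the high members. Its intensity in Col-0 was 112 ± 1.65 and in pmr6 97.8 ± 7.9, against 186 ± 73 for pmr5 and 162 ± 7.97 for the double mutant (SD over n = 3 arrays). Its pmr5 replicate 2 array, at 106, lay below the lowest Col-0 array, at 111. Since identifiers did not track values, whether this row is a control is unknown. Below the intensity floor, 145 of 9087 rows met the limits of the high members and 56 those of the low members. Their differences were not examined further, and no detection calls were used.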

How the results depend on the processing

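Of the 150 members, 100 to 131 were kept under the other pseudocounts, floors and closeness limits and under quantile normalization. With the first 64 rows dropped instead of those with control identifiers, 149 were kept, and 0 members were among those first rows. Leaving out 1 array kept 97 to 118, and leaving out both arrays with a raised dim end, an alternative chosen after seeing the data, kept 73. Without the variance trend 54 and 55 members passed for pmr5 against Col-0 and pmr5 pmr6 against pmr6, in place of 89 and 94; the cause was not tested. Leaving out 1 array gave 57 to 92 and 60 to 96, the lowest without pmr5 replicate 1 and pmr6 replicate 3. Quantile normalization gave 83 and 89. Of these, 32 and 30 were high members, in place of 39 and 40, and 51 and 59 were low members, in place of 50 and 54. The count between runs was 0 under all 17 alternatives run, 0 to 0 when 1 array was left out. Counts in the left-out run stayed within 1.5 times. The replicate block gave 93 and 98 members passed. Deviations of same-numbered arrays correlated at -0.05 to 0.14 (median 0.04), and those of differently numbered arrays at -0.21 to 0.12 (median -0.02). Same-numbered arrays share a run, but they were not treated as pairs in the main fit. With the block the correlation within genotypes was 0.05 for both the high (0.0515) and the low (0.0468) members, with quantile normalization 0.129 for the low, and without 1 array 0.026 to 0.102 and 0.068 to 0.115. Probe sets near an intensity of 100 rest on weak signal.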
